A study of Mus musculus with 3 samples.

Results

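Cyclin-dependent kinase (CDK) inhibitors were followed in single islet cells of mice given an insulin receptor antagonist. The members were the 7 CDK inhibitor genes of the count table, picked by name out of 31053 genes: Cdkn1a, Cdkn1b, Cdkn1c, Cdkn2a, Cdkn2b, Cdkn2c and Cdkn2d. The mice of all 3 libraries were males of strain C57Bl6/J, retired from breeding and aged 7 to 8 months. Control mice carried pumps without S961. S961 mice carried pumps with that peptide, which blocks the insulin receptor, at a labelled 20 nM per week for 2 weeks. Recovered mice were labelled with the same S961 dose and course, and their pumps had been taken out. The labels give neither the length of recovery nor the number of mice behind a library. After isolation the islets were held in culture overnight, dissociated with TrypLE and loaded on the droplet-based Chromium 3′ assay, so every group shared the overnight culture and the enzyme step. Each group was 1 library, so every difference below lies between libraries, no test across mice could be made, and all intervals are 95% intervals of counting error only.

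CDK inhibitors are small proteins that hold back the kinases driving cells from G1 into S phase. The CIP/KIP proteins p21 (Cdkn1a), p27 (Cdkn1b) and p57 (Cdkn1c) bind cyclin-CDK complexes of several kinds, whereas the INK4 proteins p16 (Cdkn2a), p15 (Cdkn2b), p18 (Cdkn2c) and p19 (Cdkn2d) bind CDK4 and CDK6 and keep them from cyclin D. In beta cells, the insulin-producing cells of the islet, p16 accumulates with age and p21 and p16 are common markers of senescence, while p27 and p18 are known brakes on beta-cell proliferation. The p21 gene is a classical target of the transcription factor p53.

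On GRCm38, GENCODE M21 places Cdkn1a at chr17:29090976-29100727 on the plus strand (gene ENSMUSG00000023067.14, 5 transcripts) and Cdkn1b at chr6:134920401-134925513 on the plus strand. Cdkn1c lies at chr7:143458339-143461050, minus strand. The neighbours Cdkn2a, at chr4:89274471-89294653, and Cdkn2b, at chr4:89306299-89311039, are both on the minus strand and 11645 bases apart. Cdkn2c at chr4:109660876-109667189 and Cdkn2d at chr9:21288410-21291407 are also on the minus strand. The 2 coding transcripts of Cdkn2a, which encode p16 and the unrelated protein p19Arf, have different first exons and share 575 exonic bases at the 3′ side, so a 3′ count of Cdkn2a does not tell them apart. Cdkn1a and Cdkn1c each overlap 1 gene model on the opposite strand (AC167363.2 and Gm44732), and whether counting used strand is not given in the sources used here. RefSeq promoter windows (GRCm38.p6, 250 bases before the start searched) were found for 6 of the 7 members, in 9 windows. Cdkn1c had no entry.

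Promoter bases of Cdkn1a and Cdkn1b are shown because these genes differed most between control and S961 among the members with enough molecules in beta-like cells. Cdkn1a has 2 annotated starts 2790 bases apart. The first stretch ends just before the upstream start, at chr17:29090859-29090978. Its capitals mark the only match to CATGNNNNNNCATG, a pair of p53-type core letters, 48 bases before that start. The second ends before the downstream start, at chr17:29093649-29093768, and its capitals mark GC boxes (GGGCGG). The third ends before the Cdkn1b start, at chr6:134920251-134920400, with a GC box and a CCAAT box in capitals. All 3 are plus-strand sequence, motifs were searched on both strands, and the matches shown do not overlap.
Cdkn1a upstream start: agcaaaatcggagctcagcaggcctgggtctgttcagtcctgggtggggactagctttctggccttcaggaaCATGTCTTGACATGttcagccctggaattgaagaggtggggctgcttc
Cdkn1a downstream start: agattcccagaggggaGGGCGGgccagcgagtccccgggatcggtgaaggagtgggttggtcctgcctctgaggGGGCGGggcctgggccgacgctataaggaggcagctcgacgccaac
Cdkn1b start: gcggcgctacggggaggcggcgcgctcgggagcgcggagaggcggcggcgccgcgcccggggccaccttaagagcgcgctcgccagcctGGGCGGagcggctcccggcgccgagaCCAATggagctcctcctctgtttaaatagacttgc
The CATG pair was found in 0.490% of 32851 mouse promoter windows, the GC box in 32.7% and CCAAT in 33.8%. Of the 19 other p53 list genes with a window, 0 held the CATG pair in it. TATAAA (12.4% of windows) and the FoxO core GTAAACA (3.17%) were found in none of the 9 member windows. A match describes letters in these windows and nothing more.

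The libraries gave 4267 control, 3430 S961 and 3513 recovered cells, of which 2943, 1598 and 2086 fell in clusters with beta markers and are called beta-like. The summed depth of these cells was nearly even, between 22525115 and 22726097 unique molecular identifiers (UMIs) per library. Depth per cell was not: beta-like cells had medians of 7488, 13438 and 10276 UMIs in control, S961 and recovered, and medians of 6.92%, 4.46% and 7.25% mitochondrial UMIs. A low-depth cluster held 28.7% of the S961 beta-like cells, 2.24% of those of control and 2.40% of those of recovered, and a cluster led by heat shock and metallothionein genes held 9.64%, 22.9% and 14.3% of S961, control and recovered. Doublet calling marked 3 control cells, 77 S961 cells and 24 recovered cells, so doublets were hardly removed from control. The 8 beta markers summed to 399691 to 425829 CPM in beta-like cells. Markers of other types were far lower there but differed: acinar markers summed to 78.7, 353 and 170 CPM and alpha markers to 702, 1307 and 732 CPM for control, S961 and recovered, highest in S961. Ductal markers (2065, 1723 and 1397 CPM) and PP markers (1309, 1221 and 948 CPM) were highest in control and lowest in recovered, and delta markers (185, 132 and 164 CPM) were lowest in S961. Sequence barcodes shared between libraries numbered 11, 29 and 11 for control with S961, control with recovered and S961 with recovered. The part of these features in the results was not tested unless a value is given below.

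In beta-like cells p21 showed the largest difference between control and S961 among the CDK inhibitors with more than a few molecules. The level of its gene Cdkn1a, as UMIs scaled to the class total (CPM), was 74.1 for control (interval 70.6 to 77.8, 1685 UMIs), 168 for S961 (3794 UMIs) and 75.0 for recovered (1690 UMIs). S961 thus stood above the other libraries, whose intervals overlap. The S961 level was 2.26-fold that of control (2.14 to 2.40), and the recovered level 0.447-fold that of S961 (0.422 to 0.473). Recovered over control gave a log2 ratio of 0.02 (-0.08 to 0.12), and 0.21 (0.08 to 0.33) without a cluster of beta-like cells led by stress genes. The same order appeared without any filter on cells or any classes: over all barcodes Cdkn1a was at 72.8, 165 and 69.7 CPM for control, S961 and recovered.

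Cdkn1b, which encodes p27, was at 37.2, 59.0 and 48.8 CPM for control, S961 and recovered beta-like cells (846, 1333 and 1099 UMIs), and no pair of intervals overlapped. S961 over control was a log2 ratio of 0.66 (0.54 to 0.79), recovered over S961 was -0.27 (-0.39 to -0.16) and recovered over control was 0.39 (0.26 to 0.52). Over all beta-like cells the recovered Cdkn1b value therefore lay between the other libraries and 1.31-fold above control, unlike that of Cdkn1a. This contrast was not clear within single clusters, as given below. Cdkn1c, encoding p57, was close to the detection floor, with 5, 23 and 15 UMIs in control, S961 and recovered. Its S961 over control ratio was 4.63-fold, with a counting interval from 1.72 to 15.6.

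Among the INK4 genes the differences were small or rested on few molecules. Cdkn2a gave 14, 18 and 39 UMIs for control, S961 and recovered beta-like cells, that is 0.616, 0.797 and 1.73 CPM. Recovered over S961 was a log2 ratio of 1.12 (0.28 to 2.01) and recovered over control 1.49 (0.58 to 2.49), while S961 over control was 0.37 (-0.72 to 1.49). Cdkn2b was at 12.0, 13.5 and 14.9 CPM in control, S961 and recovered, with neighbouring intervals overlapping and a recovered over control log2 ratio of 0.31 (0.08 to 0.55). Cdkn2c was at 14.3, 16.7 and 11.9 CPM, lowest in recovered, with a recovered over S961 log2 ratio of -0.48 (-0.71 to -0.25). Cdkn2d was at 15.6, 16.6 and 14.3 CPM, and its 3 intervals overlapped.

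**Figure D1:**
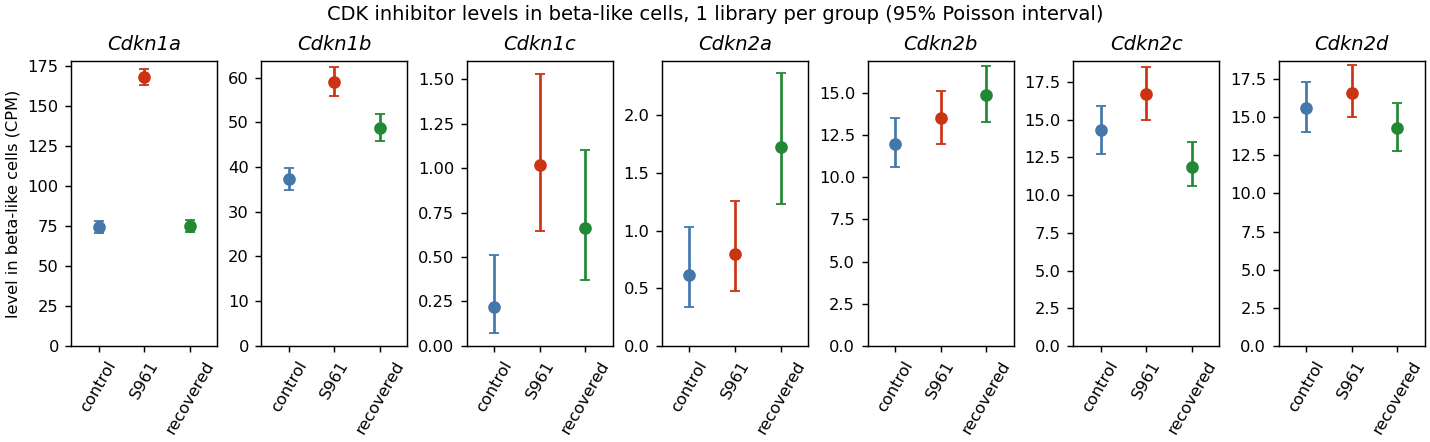
Level of each CDK inhibitor in beta-like cells (vertical axis, CPM from 0; scales differ between panels) in the control, S961 and recovered libraries; bars are exact Poisson 95% intervals. Cdkn1a stands at 168 CPM in S961 against 74.1 and 75.0, Cdkn1b is intermediate in recovered, and Cdkn1c and Cdkn2a lie below 2 CPM.

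A gene with 50 or more UMIs in the pair of libraries counted as measured, and as higher or lower at a log2 ratio of at least 0.32 either way. For S961 over control, 2 of 5 measured members were higher (Cdkn1a and Cdkn1b) and 0 lower, beside 14.8% higher and 12.5% lower among 11647 genes of beta-like cells. For recovered over S961, 1 of 6 was higher (Cdkn2a) and 2 lower (Cdkn1a and Cdkn2c), beside 14.5% higher and 9.36% lower of all genes. For recovered over control, 2 of 6 were higher (Cdkn1b and Cdkn2a) and 0 lower, beside 11.2% and 4.34%. The median member log2 ratios were 0.23, -0.24 and 0.17, beside -0.02, 0.07 and 0.05 over all genes. The comparisons share libraries and are not independent of each other. The Cdkn2a calls were lost, for want of 50 UMIs, among cells with at most 10% mitochondrial UMIs, where the ratios were 1.06 over S961 and 1.33 over control. Without the low-depth cluster, 3 of 6 members were lower in recovered than S961, with Cdkn1b at -0.34 as the added gene. Of 11623 genes in that setting, 10.8% were lower and 10.4% higher.

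The p21 difference was present in every beta-like cluster, as the plot of levels by cluster shows. In the largest cluster, led by Cib3, Mlxipl and Ucn3, Cdkn1a was at 41.9, 134 and 54.3 CPM for control, S961 and recovered. In the cluster led by Pdyn it was at 76.8, 188 and 88.5 CPM. In the stress-led cluster it was at 146, 327 and 153 CPM, above the other clusters of the same library. S961 over control was 3.20-fold, 2.45-fold and 2.24-fold in these 3 clusters, and 2.90-fold (log2 interval 0.53 to 2.77, 8 control UMIs) in the low-depth cluster. The stress-led cluster held a larger share of control cells than of S961 cells, and without it the log2 ratio over all beta-like cells was 1.39 in place of 1.18. Cdkn1b was likewise higher in S961 than control in the Cib3-led, Pdyn-led and stress-led clusters (1.53-fold, 1.75-fold and 1.98-fold), but in the low-depth cluster its log2 ratio was 0.07, with an interval that included 0 and only 9 control UMIs. Within the Cib3-led cluster the recovered Cdkn1a level was 1.29-fold that of control (log2 ratio 0.37, interval 0.20 to 0.54). In the Pdyn-led cluster the log2 ratio was 0.21 (0.03 to 0.38), whereas in the stress-led cluster it was 0.07 (-0.11 to 0.25). For Cdkn1b the recovered over control log2 ratio was 0.37 (0.19 to 0.54) in the Cib3-led cluster. It was 0.49 (0.22 to 0.76) in the Pdyn-led and 0.15 (-0.19 to 0.48) in the stress-led cluster. The intervals of both genes thus overlapped within each of these clusters.

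**Figure D2:**
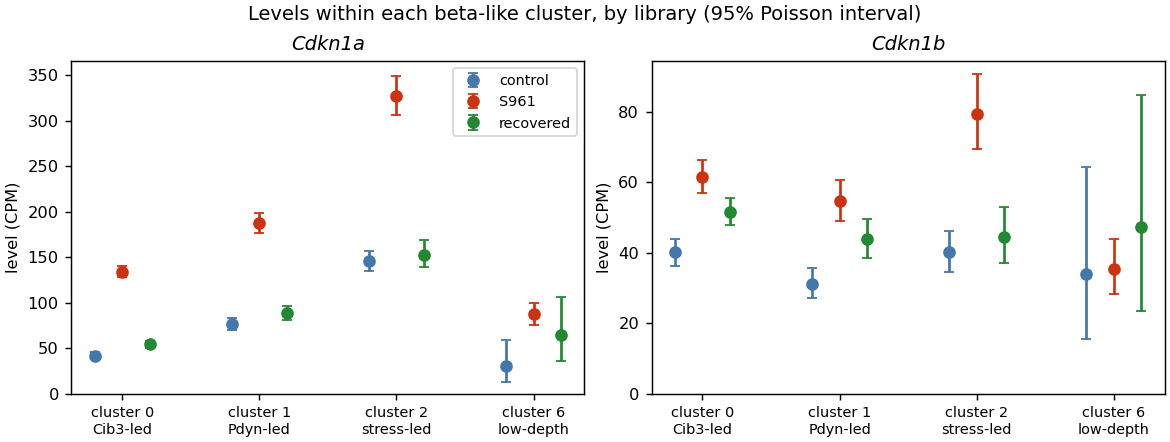
Cdkn1a (left) and Cdkn1b (right) levels in CPM (vertical axis, from 0) within each of the 4 beta-like clusters (horizontal axis), by library, with exact Poisson 95% intervals. Cdkn1a is highest in S961 in all 4 clusters and reaches 327 CPM in the stress-led cluster; in the low-depth cluster the control and recovered intervals are wide.

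Depth per cell was evened out by thinning every cell to 2000 UMIs, which left out 143 control, 95 S961 and 57 recovered beta-like cells and kept 2800 control, 1503 S961 and 2029 recovered cells. At that depth Cdkn1a was detected in 11.9% of control cells (10.8 to 13.2), 23.8% of S961 cells (21.6 to 26.0) and 12.2% of recovered cells (10.8 to 13.7). The unthinned shares, 31.0%, 56.9% and 41.1%, put recovered well above control, which the thinned shares did not. Without the low-depth cluster the thinned S961 share was 26.0%. Cdkn1b was detected in 7.93%, 10.9% and 10.4% of control, S961 and recovered cells, with the control interval (6.95 to 8.99) below the others. The remaining members were rarer: Cdkn2b in 2.07%, 2.33% and 3.10%, Cdkn2c in 2.96%, 3.79% and 2.56%, and Cdkn2d in 3.21%, 3.33% and 2.91%, each with overlapping intervals. Cdkn1c was detected in 1, 7 and 4 thinned cells and Cdkn2a in 2, 3 and 8. The Cdkn2a shares, 0.0714%, 0.200% and 0.394% (0.170 to 0.775 in recovered), overlapped those of all other named classes together, 0.231%, 0.0699% and 0.132% (0.00334 to 0.732 in recovered). At this depth they could thus not be told from those of other cells, and the background level was not measured.

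The higher p21 level in S961 was seen among cells with several Cdkn1a molecules as well as in the detected share. At 2000 UMIs per cell, 2.00% of control cells (1.51 to 2.59), 5.99% of S961 cells (4.84 to 7.31) and 1.58% of recovered cells (1.08 to 2.22) held at least 2 Cdkn1a UMIs. At least 5 were held by 1 control, 5 S961 and 2 recovered cells, and the highest thinned cell of S961 held 10. Cdkn1b rarely passed 1 molecule, with 0.357%, 0.931% and 0.838% of cells holding at least 2.

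Across the other cell classes Cdkn1a was highest in endothelial-like cells, at 721, 913 and 778 CPM in control, S961 and recovered. Stromal-like cells, which pool fibroblast and stellate markers, had 286, 320 and 281 CPM, with overlapping intervals. Delta-like cells, which make somatostatin, had 77.0, 92.2 and 65.6 CPM and alpha-like cells, which make glucagon and here include Ppy cells, had 56.7, 79.2 and 51.9 CPM. Lymphocyte-like cells had 51.7 CPM in S961 and 30.5 in recovered. The order within a library thus ran from endothelial-like through stromal-like to endocrine cells, and control beta-like and delta-like levels did not differ beyond counting error. The acinar-like, macrophage-like and ductal-like classes held as few as 6, 18 and 7 cells in a library and are not ordered. Delta-like cells also held PP marker RNA (Ppy and Pyy), which summed to 70228, 98585 and 68395 CPM in control, S961 and recovered.

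**Figure D3:**
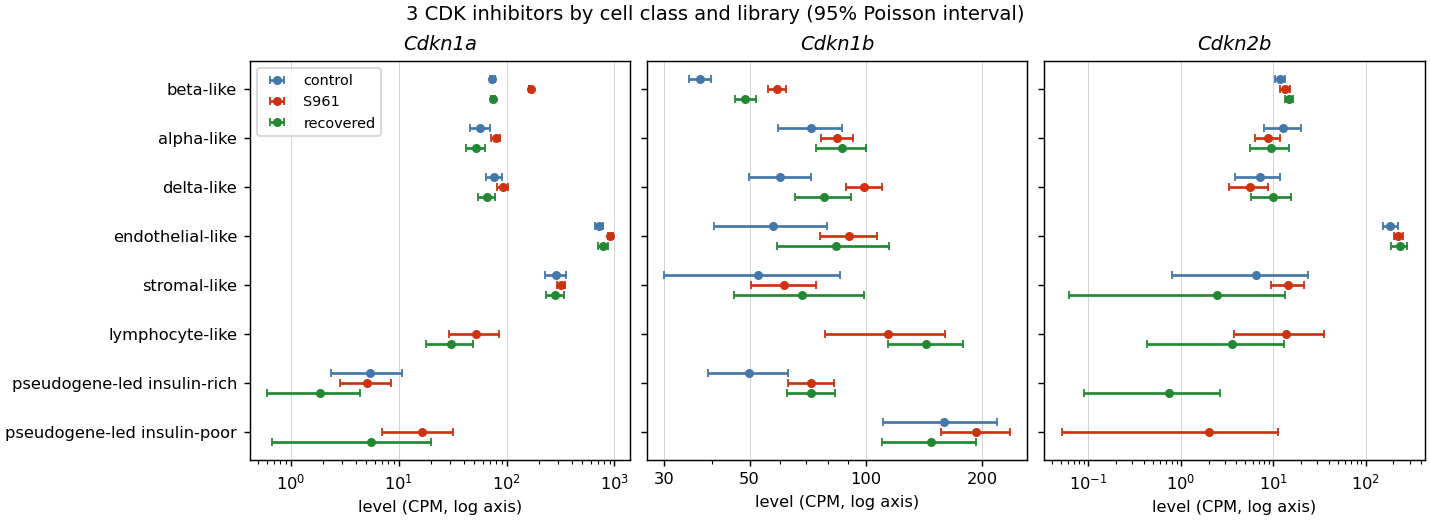
Cdkn1a, Cdkn1b and Cdkn2b levels (horizontal log axis, CPM) by cell class (vertical axis) and library, with exact Poisson 95% intervals; classes under 30 cells and levels of 0 are not drawn. Endothelial-like cells have the highest Cdkn1a and Cdkn2b levels, and the pseudogene-led cells have Cdkn1b without comparable Cdkn1a.

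The S961 over control log2 ratio of Cdkn1a was 0.48 (0.14 to 0.83) in alpha-like, 0.26 (-0.02 to 0.55) in delta-like, 0.34 (0.19 to 0.49) in endothelial-like and 0.16 (-0.17 to 0.51) in stromal-like cells. All 4 intervals lay below the 1.10 to 1.26 of beta-like cells, but the difference between classes could not be tested with 1 library per group. Among cells with 4 to 7% mitochondrial UMIs the endothelial-like ratio was 2.04 (0.78 to 3.69), an interval that spans 1.10 to 1.26. Only 642 genes were measured in those endothelial-like cells, with a median log2 ratio of 0.34 and 50.6% of them higher. The order of beta-like and endothelial-like cells was therefore not settled under that choice. In recovered over S961 Cdkn1a was lower in alpha-like (-0.61) and delta-like cells (-0.49), and at -0.23 and -0.19 in endothelial-like and stromal-like cells. Beta RNA in other classes also differed between libraries. The summed beta markers in endothelial-like cells were 72631, 10225 and 19595 CPM for control, S961 and recovered. They were 130071, 40343 and 101459 CPM in stromal-like cells, and 47070, 18077 and 27145 CPM in alpha-like cells. The part of beta RNA in these ratios was not tested. Endothelial markers in beta-like cells summed to 7.70, 11.6 and 9.19 CPM, against 11308 to 13353 CPM in endothelial-like cells.

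Cdkn1b was higher in S961 than control in delta-like cells, at 98.9 against 60.1 CPM (log2 ratio 0.72, 0.41 to 1.03), and in endothelial-like cells, at 90.5 against 57.4 CPM (0.66, 0.13 to 1.22). Summed beta markers in delta-like cells were 149810, 61971 and 144359 CPM for control, S961 and recovered, where Cdkn1b was at 60.1, 98.9 and 77.7 CPM; the part of beta RNA in this difference was not tested. In alpha-like cells it was at 72.2, 84.3 and 86.5 CPM in control, S961 and recovered, with overlapping intervals. The ratios of Cdkn1b in beta-like, delta-like and endothelial-like cells therefore overlapped, unlike those of Cdkn1a. Lymphocyte-like cells had 114 CPM of Cdkn1b in S961 and 143 in recovered, above every beta-like level.

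Of the INK4 genes, Cdkn2b stood out in endothelial-like cells, at 186, 227 and 233 CPM in control, S961 and recovered. At 2000 UMIs it was detected in 35.2%, 28.4% and 41.7% of those cells, against 2.07% to 3.10% of beta-like cells. Stromal-like cells from the same libraries held it in 0 of 55, 1 of 192 and 0 of 54 thinned cells; by a floor of 3 counts, 0 of 55 allows up to 5.45% of cells with a UMI at this depth, below the endothelial-like shares. Cdkn2c was at 39.5, 36.6 and 58.6 CPM in stromal-like cells, above the beta-like levels, and Cdkn2d reached 48.3 and 68.1 CPM in S961 and recovered lymphocyte-like cells. For S961 over control in alpha-like cells, 1 of 5 measured members was higher and 1 lower, beside 20.5% higher and 7.77% lower of all genes. In delta-like cells 1 of 3 was higher and 0 lower (23.9% and 8.44% of all genes), in endothelial-like cells 2 of 3 and 0 (27.2% and 11.5%), and in stromal-like cells 1 of 4 and 0 (38.7% and 15.5%). For recovered over S961, 0 of 5 were higher and 1 lower in alpha-like cells (11.2% and 14.3% of all genes), and 0 of 3 higher and 2 lower in delta-like cells (8.99% and 19.9%). In endothelial-like cells 0 of 3 passed either way (16.2% and 18.6%), and in stromal-like cells 1 of 4 was higher and 0 lower (18.2% and 37.3%). With 3 to 5 measured members a class, nothing is read from these counts.

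A separate insulin-rich cluster had a different mix of CDK inhibitors. It was led by Trh, Msln, Gad2 and the processed pseudogene Ftl1-ps1, held 218, 211 and 275 cells of control, S961 and recovered, and had 55.7% of its UMIs from insulin genes and a median of 1.47% mitochondrial UMIs. Cdkn1a was at only 5.46, 5.10 and 1.86 CPM there (8, 15 and 5 UMIs), with all 3 intervals below 11 CPM. Cdkn1b was at 49.9, 72.1 and 72.3 CPM and Cdkn2c at 18.4, 25.2 and 17.9 CPM, levels that overlap or exceed those of beta-like cells in the same library. Cdkn2b, at 12.0 to 14.9 CPM in beta-like cells, had 0 UMIs in control and S961, which allows up to 2.05 and 1.02 CPM, and 0.745 CPM in recovered. The insulin-poor cluster led by Calcb, Sftpd and Rpl9-ps1 showed the same combination, with Cdkn1b at 159, 193 and 147 CPM and Cdkn1a at 0, 16.3 and 5.56 CPM. These cells were kept outside the beta-like class. Adding the insulin-rich cluster to it gave a Cdkn1a log2 ratio of 1.09 for S961 over control.

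Of the listed p53 genes besides Cdkn1a, 9 of 21 measured in beta-like cells were higher in S961 than control, 0 were lower and 12 passed neither way, beside 14.8% higher and 12.5% lower of all genes. Their median log2 ratio was 0.18 beside -0.02 over all genes. Gdf15, a secreted stress cytokine, was at 13.6, 30.1 and 13.5 CPM in control, S961 and recovered. Phlda3, an inhibitor of Akt, was at 8.54, 18.9 and 6.04 CPM, and Ccng1, a cyclin induced by p53, at 70.0, 105 and 73.0 CPM. Dcxr, a carbonyl reductase, was at 5.68, 12.0 and 7.99 CPM. In the order named, the S961 over control log2 ratios were 1.15, 1.14, 0.58 and 1.08. These 4 were named because they lay farthest from 0 in that pair, so a level above control follows from the choice. For recovered over S961, 8 of 21 were lower and 1 higher (Sesn1), beside 9.36% lower and 14.5% higher of all genes, with a median of -0.21 beside 0.07. Over the alternatives the S961 over control median lay between 0.14 and 0.33. For recovered over control, 4 of 20 were higher and 2 lower, beside 11.2% and 4.34% of all genes. Trp53 itself was at 13.7, 13.6 and 14.8 CPM and passed the threshold in no pair. In alpha-like cells 4 of 19 list genes were higher and 1 lower in S961 than control, beside 20.5% and 7.77% of all genes there. In delta-like cells 3 of 18 were higher and 2 lower, beside 23.9% and 8.44%. The shares of list genes higher in alpha-like and delta-like cells were thus near or below those of all genes. In endothelial-like cells 7 of 16 were higher and 3 lower, beside 27.2% and 11.5%, with a median log2 ratio of 0.27 beside 0.11. In stromal-like cells 6 of 12 were higher and 4 lower, beside 38.7% and 15.5%, with a median of 0.28 beside 0.17. In endothelial-like and stromal-like cells the shares higher and the shares lower were thus both above those of all genes.

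**Figure D4:**
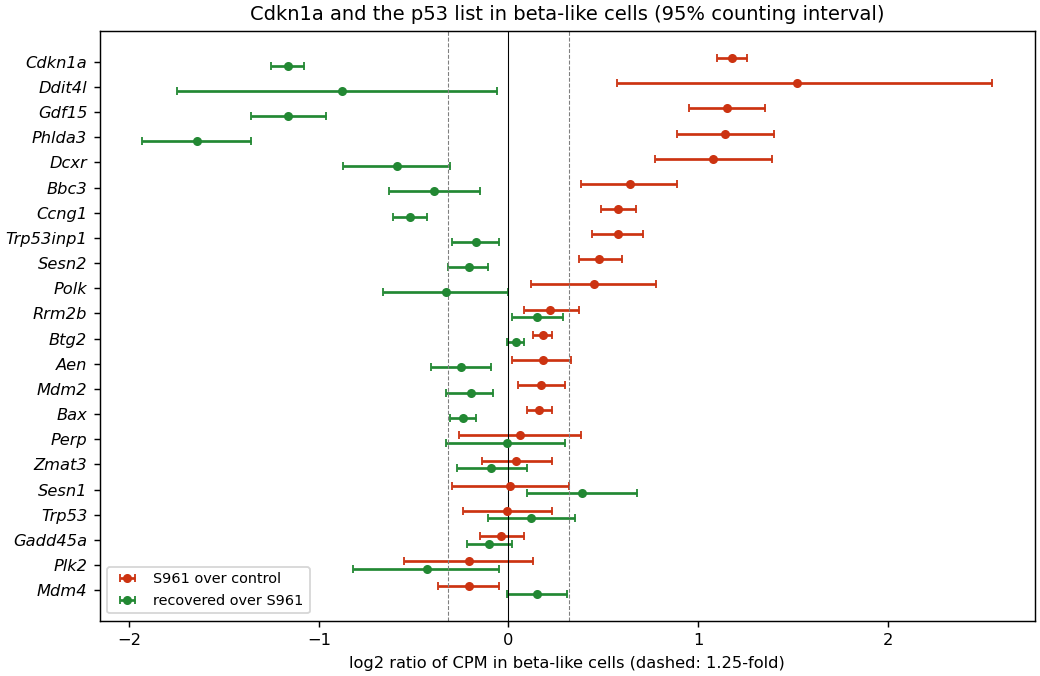
Log2 ratio of CPM (horizontal axis) in beta-like cells for Cdkn1a and the 21 measured p53 list genes (vertical axis, ordered by S961 over control), with 95% counting intervals; dashed lines mark a log2 ratio of 0.32 either way. The genes with the highest S961 over control ratios lie mostly to the left in recovered over S961, and the comparisons share the S961 library, which ties their signs.

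The cell-cycle genes on which CDK inhibitors act are given for beta-like cells, where 14.8% of all genes were higher and 12.5% lower in S961 than control. Of the G1 and S cyclins and CDKs, 2 of 6 measured genes were higher in S961 than control: the D-type cyclins Ccnd1, at 107, 162 and 115 CPM in control, S961 and recovered, and Ccnd2, at 373, 481 and 535 CPM. Cdk4, the INK4 target kinase, was at 84.4, 78.5 and 86.2 CPM, and Cdk6 had only 7, 8 and 17 UMIs. Ccnd1 was lower again in recovered, whereas Ccnd2 was not. Of the pocket proteins and E2F factors, 4 of 12 were higher and 1 lower in S961, led by E2f1, an activator of S-phase genes, at 5.28, 10.0 and 7.28 CPM, and its partner Tfdp2, at 18.2, 25.9 and 20.9 CPM. E2f3 was at a log2 ratio of 0.34, but its interval (-0.24 to 0.92) included 0. Of the 21 S, G2 and M genes only 4 had 50 UMIs, and 1 of these, the replication helicase subunit Mcm2, was lower in S961 (log2 ratio -0.34, -0.67 to -0.02). Mki67, a proliferation marker, gave 11, 20 and 9 UMIs in control, S961 and recovered.

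Of the genes for turnover of CIP/KIP proteins, 2 of 9 were lower in S961 than control and 0 higher, beside 12.5% lower and 14.8% higher of all genes. Cks1b, the cofactor with which the SCF ligase recognises p27, was at 45.8, 30.1 and 35.6 CPM in control, S961 and recovered, a log2 ratio of -0.61 (-0.75 to -0.47) for S961 over control. Ddb1, an adaptor of CUL4 ligases, was at 119, 92.9 and 124 CPM. Skp2, the p27 receptor of the SCF ligase, had 49, 48 and 56 UMIs. Of the chromatin and transcription regulators of these genes, 3 of 24 were higher and 3 lower in S961, near those shares of all genes, with a median of -0.07 beside -0.02. Kmt2a, a histone methyltransferase, was at 61.4 against 77.9 CPM in control and S961, and Klf4 at 6.91 against 9.91. Rnf2, a Polycomb ubiquitin ligase, was at 19.6 against 14.9 CPM, and Tgfbr1, a TGF-beta receptor, at 16.9 against 13.3. The Polycomb genes Bmi1 and Ezh2, which repress Cdkn2a, had S961 over control log2 ratios of -0.12 and 0.26. In recovered over S961, 3 of 24 regulators were higher and 4 lower, beside 14.5% and 9.36% of all genes. Ezh2 was lower there (log2 ratio -0.49, -0.92 to -0.07), as was the Polycomb gene Cbx8 (-0.38), whereas Bmi1 was at 0.27. In recovered over control, 0 of 24 regulators passed the threshold either way, beside 11.2% higher and 4.34% lower of all genes. The part of these regulators in the Cdkn2a levels was not tested.

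Within a library, beta-like cells with a Cdkn1a UMI more often held Ccng1. At 2000 UMIs Ccng1 was detected in 22.2% of Cdkn1a cells and 12.0% of the other cells in control, in 23.0% and 13.5% in S961, and in 20.2% and 11.5% in recovered, with intervals apart in all 3 libraries. Phlda3 was detected in 4.19% against 0.933% in control and 4.03% against 0.786% in recovered, with intervals apart, and in 5.60% against 2.71% in S961, with intervals overlapping. Of the list genes held by at least 20 cells, 3 of 20 were more often detected in Cdkn1a cells of control (Ccng1, Phlda3 and Aen), 1 of 19 in S961 (Ccng1) and 3 of 19 in recovered (Ccng1, Phlda3 and Bax), and 0 less often. At 4000 UMIs these numbers were 7, 6 and 2 of 20, and the Phlda3 intervals overlapped in recovered (3.61% against 1.35%) and were apart in S961 (11.8% against 2.93%). Without the stress-led cluster, where Cdkn1a was highest, Ccng1 stayed apart in all 3 libraries. Phlda3 intervals then overlapped in control (2.43% against 0.665%), Bax intervals overlapped in recovered (26.5% against 19.9%), and Phlda3 in recovered was at 4.32% against 0.578%, with intervals apart but fewer than 20 cells holding it. The same share over all genes was not computed, so nothing particular to the p53 list is read from these counts. Cells are not replicates, and these intervals describe each library only.

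For the other CDK inhibitors the shares among cells with and without Cdkn1a had overlapping intervals, with 1 exception. In recovered, Cdkn1b was detected in 15.7% of Cdkn1a cells (11.4 to 20.9) and 9.66% of the other cells (8.32 to 11.1). In control the shares were 9.28% and 7.75%, and in S961 13.2% and 10.2%, with overlapping intervals. At 4000 UMIs the recovered library held 88 cells with both genes, beside 77.1 from the product of their shares, and S961 held 93 beside 92.2. The recovered shares at that depth, 21.2% and 17.9%, had overlapping intervals. At 2000 UMIs Cdkn1b and Cdkn2c were found together in 15 control cells, 7 S961 cells and 3 recovered cells, beside 6.58, 6.22 and 5.41 from the product of the shares, with no common direction. At the same 2000 UMIs 75.2% of control cells (73.6 to 76.8), 62.3% of S961 cells (59.8 to 64.8) and 72.5% of recovered cells (70.5 to 74.5) held 0 of the 7 genes. The shares with 2 members were 3.11%, 6.72% and 3.55% for control, S961 and recovered, and 0 cells in any library held 4.

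**Figure D5:**
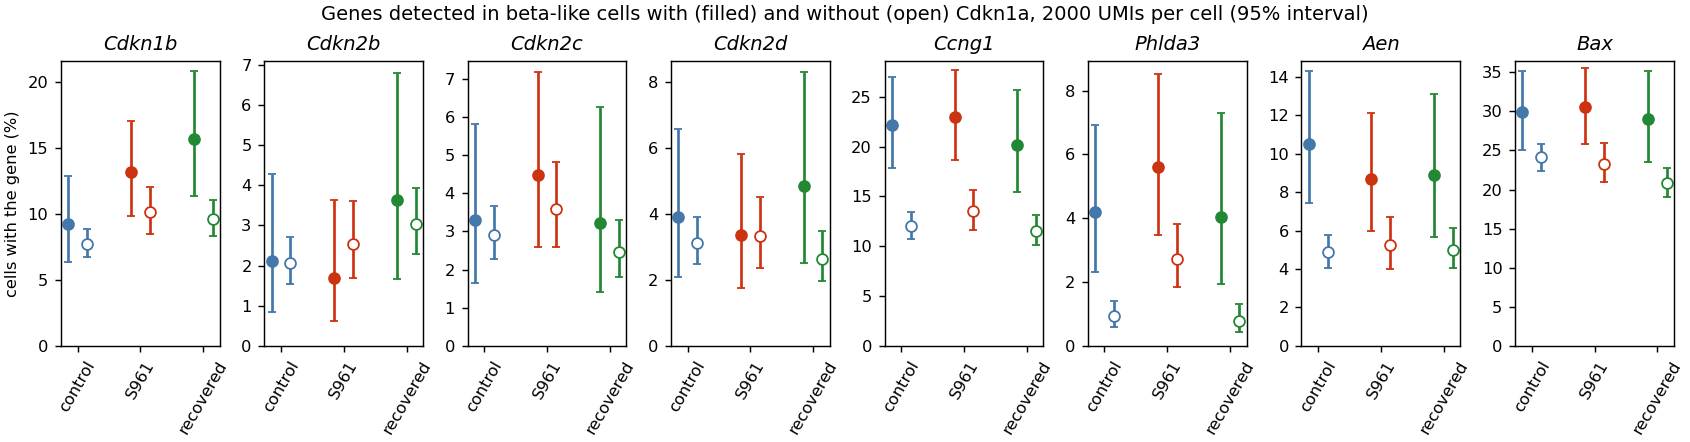
Share of beta-like cells with each gene (vertical axis, %, from 0) among cells with a Cdkn1a UMI (filled) and without (open), by library, at 2000 UMIs per cell, with exact 95% intervals. Ccng1 is apart in all 3 libraries, while the CDK inhibitors Cdkn2b, Cdkn2c and Cdkn2d overlap in all 3.

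The genes whose pattern was most like each member were ranked by Pearson r of log2(CPM + 1) over 20 class-by-library sums. Points of 1 class share their cell type and points of 1 library their depth, so r is given as a description. For Cdkn1a the nearest genes were Thbs1 and Clic4 (r = 0.95 each) and Tmem43 (0.94). For Cdkn1b they were Ccni and Srrm2 (0.97 each) and Cep57 (0.96). For Cdkn2b they were Rasip1 (0.92), Dll4 and Arhgef7 (0.91 each), for Cdkn2c Nudt5 (0.91), Stt3b (0.88) and Tmem38b (0.86), and for Cdkn2d Ppwd1 and Virma (0.95 each) and Rpa3 (0.94). Cdkn1c and Cdkn2a, with 129 and 91 UMIs in all named classes, fell under the 300 UMIs needed.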

How the data were processed

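The authors deposited 1 table of counts, in which each value is the number of UMIs of a gene in a barcode. Per the submitters' processing notes it came from Cell Ranger on mm10, and the version is not given in the sources used here. Barcodes were assigned to libraries by the suffix in the labels. It held 24590 barcodes, none under 500 UMIs. Barcodes under 500 genes or over 20% mitochondrial UMIs and doublets called by Scrublet were left out, and cells were clustered with scanpy 1.11.5 and leidenalg 0.10.2 (2000 variable genes, 30 components, 15 neighbours, resolution 0.5, no integration) into 18 clusters. Clusters were named from 15 marker sets, hence "-like"; those led by a processed pseudogene were kept apart. The control, S961 and recovered libraries held 38265969, 47651767 and 40102058 UMIs.

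UMIs were summed per class and library and scaled to CPM, with exact Poisson intervals for levels, conditional binomial intervals for ratios and Clopper-Pearson intervals for shares. A count of 0 is limited at 3 UMIs. The ratio step was tested on simulated data. With 1 library per group no p-value was computed. Named genes were all members, the list genes at a log2 ratio of 0.32 or more either way with at least 100 UMIs over S961 and control that were farthest from 0 (up to 4 a list), and the 3 genes most like each member; Trp53, Cdk4, Cdk6, Skp2, Mki67, Bmi1 and Ezh2 were added after their values were seen. The members and lists were chosen with earlier results of these data known. Alternatives were another scaling, minimum count, mitochondrial range, doublets kept, mean of cells, thinning depth, clustering resolution and classes with clusters left out or added. The cells without the low-depth cluster and the unfiltered barcodes were chosen after seeing the data.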

Additional observations from a re-analysis of the deposited data

How the results depend on the processing

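No paired analysis was possible because each group is 1 library. In beta-like cells the Cdkn1a log2 ratio of S961 over control was 1.18 and ranged from 1.09, with the pseudogene-led insulin-rich cluster added, to 1.39, without the stress-led cluster. Cdkn1b ranged from 0.44 to 0.77. Members counted as higher in S961 than control were 2, and 4 of 7 with a minimum of 10 UMIs, which lets in Cdkn1c and Cdkn2a. At that minimum 19.8% of 13719 genes were higher and 14.1% lower. Members higher in recovered than S961 were 1, and 0 with at most 10% or with 4 to 7% mitochondrial UMIs, where Cdkn2a had too few UMIs to be measured. Of all genes, 13.1% and 11.2% were higher under these 2 limits. Members higher in recovered than control were 2, and 1 under both mitochondrial limits, without the stress-led cluster or at 1.5-fold. The shares of all genes higher there were 11.7% (at most 10%), 12.7% (4 to 7%), 11.5% (without the cluster) and 3.17% (1.5-fold). Members lower in recovered than S961 were 2, and 1 at 1.5-fold, beside 3.62% of all genes lower at 1.5-fold. Taking the mean of each cell's CPM moved the median log2 ratio of all genes from -0.02 to -0.13 for S961 over control and from 0.07 to 0.18 for recovered over S961. It also moved the split of higher and lower genes for S961 over control from 14.8% and 12.5% to 12.1% and 26.9%, and for recovered over S961 from 14.5% and 9.36% to 33.8% and 8.93%. Thinning to 2000 UMIs gave medians of -0.10 and 0.14 and splits of 10.9% and 25.2%, and 30.2% and 8.31%. The 3 measured members then higher in S961 than control included Cdkn2c. The values that reversed were Cdkn2b in endothelial-like cells, recovered over control, at -0.29 with 4 to 7% mitochondrial UMIs, and the regulator list's median in stromal-like cells, recovered over control, at -0.11 with a minimum of 10 UMIs; the cause was not tested. For Cdkn1a in S961 over control and the member counts, all in beta-like cells, 72 recomputed values stayed within their margin (the counting interval, or 1.5 times for a count) and 10 moved, each given above. Of the remaining values recomputed, which include other classes, list medians and shares of cells, 1177 stayed within their margin and 264 moved. Depth limits Cdkn1c and Cdkn2a, which are near the floor of 3 UMIs in most classes.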
